A study of Mus musculus with 12 samples.

Results

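The 10 genes described here are the 8 mouse E2F transcription factors, E2f1 to E2f8, and the pocket protein genes Rb1 and Rbl1. They were taken by symbol from the gene lists of 12 RNA-seq libraries, which hold 24062 genes, and all 10 had a value in every library. The libraries come from 2 mouse models of liver cancer on 2 diets, with 3 mice per group, and the question was how withdrawal of dietary tryptophan (Trp) changes the transcriptome of each. MYC-ON livers came from male FVB mice carrying LAP-tTA and TRE-MYC, in which the liver promoter LAP drives a transactivator that switches on MYC once doxycycline is withdrawn, here at birth. The control diet was given to mice 101, 102 and 103 and the No-Trp diet to mice 105, 107 and 108. The xenografts were tumors of HCC53N, a single line of mouse liver cancer cells without p53 and with mutant NRAS, implanted subcutaneously in female NOD SCID hosts, and the labels also list these cells as FVB MYC ON, which was not settled here. Control xenografts were numbered 40, 41 and 43 and No-Trp xenografts 35, 36 and 37. Every mouse was on its diet for 21 days. The labels do not tie an age to the mice on these diets.

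E2F factors bind the promoters of genes for DNA replication and cell division. Pocket proteins, the products of Rb1, Rbl1 and Rbl2, bind most E2F factors and block their activity until cyclin-dependent kinases phosphorylate the pocket protein, and this release marks the entry into S phase. E2f1, E2f2 and E2f3 are known as activators, E2f4 and E2f5 mainly as repressors that act together with pocket proteins, E2f6 as a repressor that does not bind pocket proteins, and E2f7 and E2f8 as atypical repressors that bind DNA without a DP partner. In liver, the atypical factors are best known for their part in hepatocyte polyploidy.

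In the GRCm38 build used by the files, the genes lie on 9 chromosomes, with E2f1 (chromosome 2, 154559407 to 154569892, minus strand) and Rbl1 (chromosome 2, 157145893 to 157204534, minus strand) on the same one. The strand setting of the counting is not given in the sources used here, so reads from overlapping genes on opposite strands cannot be told apart. The exons of Rb1 share 488 bases with Rcbtb2 and 408 bases with Lpar6, both on the other strand and both counted as genes of their own. E2f8 shares 610 exonic bases with Gm2788, which is not among the genes counted, so its reads could have been counted as E2f8. E2f7 shares 86 with 1700020G17Rik and E2f5 shares 26 with 1810022K09Rik. How the overlaps affect the counts was not tested.

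Promoters of 4 genes are shown because these windows hold the letters of an E2F motif. Of these genes, E2f3 and E2f7 were not among those called lower in the livers below. E2f2 was called lower, but its windows held no E2F match, and neither did the window of E2f6 or a further window of E2f3. The windows are the 250 bases before the RefSeq start, in GRCm38.p6, and 7 of the 10 genes had a window. The motif was searched on both strands as TTTGGCGC, TTTCGCGC, TTTCCCGC or TTTGCCGC, and in a shorter form without the first T that overlaps it. The letters TTTGAA, known as the core of the CHR element of G2/M genes, were searched as well. Capitals mark these matches.
Rbl1 (chr2:157204535-157204784, minus strand): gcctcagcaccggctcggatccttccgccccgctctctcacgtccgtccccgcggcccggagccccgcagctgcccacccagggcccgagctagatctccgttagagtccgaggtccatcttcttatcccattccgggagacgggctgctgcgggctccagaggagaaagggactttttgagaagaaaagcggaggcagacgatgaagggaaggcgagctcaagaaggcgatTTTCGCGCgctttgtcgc
E2f3 (chr13:29986064-29986313, minus strand): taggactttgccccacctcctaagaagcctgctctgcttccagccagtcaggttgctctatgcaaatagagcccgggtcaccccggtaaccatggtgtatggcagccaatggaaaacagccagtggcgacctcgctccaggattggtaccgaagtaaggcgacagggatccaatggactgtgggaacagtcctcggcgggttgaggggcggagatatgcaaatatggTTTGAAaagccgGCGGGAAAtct
E2f7 (chr10:110745189-110745438, plus strand): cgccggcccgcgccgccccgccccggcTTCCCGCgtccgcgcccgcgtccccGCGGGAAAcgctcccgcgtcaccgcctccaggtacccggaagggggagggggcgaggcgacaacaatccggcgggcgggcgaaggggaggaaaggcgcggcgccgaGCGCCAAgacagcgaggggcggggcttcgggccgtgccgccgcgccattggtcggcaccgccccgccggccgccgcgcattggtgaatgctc
E2f8 (chr7:48881597-48881846, minus strand): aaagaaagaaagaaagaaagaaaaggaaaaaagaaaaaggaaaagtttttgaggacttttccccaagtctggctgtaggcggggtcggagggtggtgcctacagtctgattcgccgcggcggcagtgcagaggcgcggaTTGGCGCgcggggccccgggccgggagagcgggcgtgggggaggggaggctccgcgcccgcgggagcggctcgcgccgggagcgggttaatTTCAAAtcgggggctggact

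In the window of Rbl1, TTTCGCGC lies 18 to 11 bases before the start. The E2f3 window holds GCGGGAAA, the reverse complement of TTTCCCGC, at 11 to 4 bases and TTTGAA at 23 to 18 bases before the start. The E2f7 window has 3 matches to the shorter form, 1 of which extends to all 8 letters. E2f8 has TTGGCGC at 111 to 105 bases and TTCAAA, the reverse complement of TTTGAA, at 20 to 15 bases before its start. The 8-letter motif stood in 1.86% of 32851 RefSeq windows and the 7-letter form in 7.89%, while TTTGAA stood in 16%. By gene, the 8-letter motif was found in 3 of the 7 family genes with a window, in 10 of 24 E2F target genes (41.7%), in 0 of 13 G2/M genes and in 2.16% of all 27025 genes. The 7 include E2f1, counted without a match. Its RefSeq start lies 466 bases inside the GENCODE gene, so the bases before the GENCODE start of E2f1 were not searched. TTTGAA was found in 5 of 13 G2/M genes (38.5%) and in 18.3% of all genes. These matches are a description of the letters in the windows and no evidence of binding.

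Reads counted on genes ranged from 14660963 to 26085349 per library, and the 10 genes together took 2208 to 10964 of them. Within each group, all pairs of libraries differed by more than sampling noise. Trp53 was at 17.5 to 23 CPM (reads scaled by the library total and its TMM factor) in the xenografts and at 46.6 to 133 in the livers, and Nras at 235 to 484 CPM against 46.6 to 106. Hepatocyte markers were present in both models but far lower in the xenografts, where the 10 genes summed to 629.6 to 1408 CPM, against 10536 to 129305 CPM in the livers. The ribosomal RNA row Rn45s took 12.1% of the reads in control liver 101, 2.22% in control liver 102 and at most 0.758% elsewhere. Livers 101 and 108 and control xenografts 41 and 43 carry a mark of resubmission, and control xenograft 40 has a data name of another form than the rest. The mark was treated as a possible batch. It was not part of the main tests and entered only an alternative fit as a covariate and the ratios within marked and unmarked mice.

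E2f4, a repressor and the main pocket protein partner in resting cells, had the highest level per exon length of the 10 genes in all 4 groups. It stood at 42.6 ± 2.55 CPM per kb (SD, n = 3) in control livers, 20.4 ± 2.61 in No-Trp livers, 32.4 ± 3.12 in control xenografts and 39.6 ± 9.01 in No-Trp xenografts, and in each group its lowest library was above the highest of the next gene. E2f5 came next in 3 groups, with 17.2 ± 1.93 CPM per kb in control livers, and E2f3 in the No-Trp xenografts, where E2f3 and E2f5 overlapped. E2f7 was the lowest in all 4 groups, between 0.482 ± 0.223 CPM per kb in No-Trp livers and 1.43 ± 0.220 in No-Trp xenografts, although it overlapped E2f2 in 3 of them. In control livers, E2f8, E2f1, E2f3, E2f2 and E2f6 formed a middle group from 11.2 ± 2.19 down to 5.33 ± 1.40 CPM per kb in which each gene overlapped its neighbour. Rbl1 and Rb1 followed at 2.90 ± 0.709 and 2.53 ± 0.814 CPM per kb and also overlapped each other.

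The summed level of the 10 genes per exon length was 104.9 ± 8.90 CPM per kb in control livers and 47.0 ± 7.76 in No-Trp livers (SD, n = 3). In the xenografts the sums were 86.8 ± 6.12 and 95.7 ± 15.5 CPM per kb. E2f7 and E2f8 together made up 11.5% ± 1.61 of the sum in control livers and 4.92% ± 1.33 in No-Trp livers, and the shares did not overlap between the diets. The share of E2f6 was 5.04% ± 1.05 in control livers and 12.7% ± 5.10 in No-Trp livers, again without overlap. Its level overlapped, at 5.33 ± 1.40 and 5.72 ± 1.20 CPM per kb, so the larger share went with the lower sum. E2f4 and E2f5 held 57.1% ± 3.91 and 60.8% ± 0.677 of the sum on the respective diets, with overlap. The activators E2f1 to E2f3 held 21.1% ± 0.202 and 15.1% ± 4.46, without overlap. Rb1 and Rbl1 held 5.14% ± 1.20 and 6.45% ± 0.548, with overlap. In the xenografts E2f7 and E2f8 held 11% ± 5.72 and 10.8% ± 5.33 on the control and No-Trp diets. No test was run on these sums and shares.

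**Figure D1:**
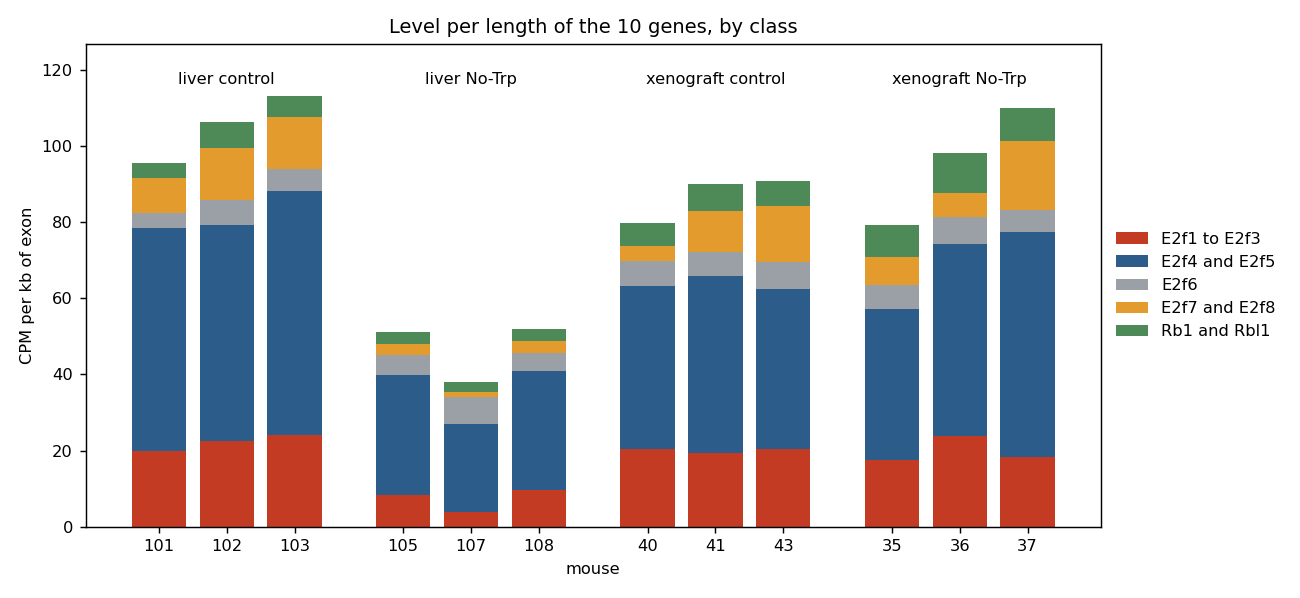
Stacked bars of the level per exon length (CPM per kb) of the 10 genes in each of the 12 mice, split into activators (E2f1 to E2f3), repressors (E2f4 and E2f5), E2f6, atypical repressors (E2f7 and E2f8) and pocket proteins. The 3 No-Trp livers have the lowest bars, and E2f4 with E2f5 forms the largest block in each mouse.

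In the MYC-ON livers, 6 of the 10 genes were called lower on the No-Trp diet and none was called higher. These were the activators E2f1 and E2f2, the repressors E2f4 and E2f5, the atypical repressor E2f8 and the pocket protein gene Rbl1. A gene was called where edgeR's quasi-likelihood test gave an adjusted p of at most 0.05 and the log2 fold change was at least 1 in size, and 7.27% of the 14122 genes tested were called lower in this way. By adjusted p alone 7 of the 10 genes were lower, against 12% of all genes, and for the same 7 the mice of the diets did not overlap, against 25.4% of all genes. The median log2 fold change of the 10 genes was -1.05, and that of all genes tested was -0.0031. The 6 calls depended on single mice: 0 of the 10 genes were called without control liver 103, 1 without No-Trp liver 105, 2 without control liver 101 and 4 without No-Trp liver 107, while 6 were called without control liver 102 or without No-Trp liver 108. Over these fits the highest adjusted p of each of the 6 genes was between 0.0833 (E2f4 and E2f8) and 0.101 (E2f1), and the log2 fold changes stayed negative. Within the marked pair (livers 101 and 108) and among the 4 unmarked livers the 7 genes were also lower, with log2 ratios from -0.49 (E2f3) to -1.95 (E2f8) and from -1.05 (E2f3) to -3.54 (E2f2) respectively.

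Among the activators, E2f1, which drives entry into S phase, had 35.5, 22.3 and 32.7 CPM in control livers 101, 102 and 103. In No-Trp livers 105, 107 and 108 it had 9.02, 3.37 and 12.6 CPM. Every No-Trp liver was below every control liver, with liver 107 the lowest. E2f1 fell 3.59-fold (log2 fold change -1.84, SE 0.457, adjusted p = 0.0310 in edgeR, n = 3). E2f2, an activator that also serves the maturation of red blood cell precursors, was at 11.1, 41.2 and 29.6 CPM in the control livers and at 4.8, 1.29 and 5.70 CPM in the No-Trp livers. The groups did not overlap, but control liver 101 lay nearer to the No-Trp livers than to the other control livers. E2f2 fell 6.86-fold (log2 fold change -2.78, SE 0.656, adjusted p = 0.0291 in edgeR), the largest change of the 10 genes. E2f3, the remaining activator, was at 35.0, 37.8 and 41.9 CPM on the control diet and 24.7, 13.7 and 25.0 CPM on the No-Trp diet. These groups did not overlap either. The log2 fold change of E2f3 was -0.84 (SE 0.252, adjusted p = 0.0486 in edgeR), short of the fold threshold.

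The order of E2f2 in the control livers was that of the erythroid markers, an order that E2f6, E2f7, Rb1 and Rbl1 shared. The 9 erythroid genes measured here, among them Alas2, Slc4a1 and Gata1, summed to 77.5 CPM in control liver 101, 772.5 in 102 and 491 in 103. In the No-Trp livers they summed to 18, 21.6 and 33.9 CPM, with Gata1 at 0 in liver 107. The orders differed there, with E2f2 lowest in liver 107 and the erythroid sum lowest in liver 105. Of the 9 genes, 7 were called lower on the No-Trp diet, against 7.27% of all genes. The log2 fold changes of all 9 were negative, with a median of -4.81. The xenografts, at 4.84 to 9.63 CPM of E2f2, held 3.27 to 6.52 CPM of these markers, and Gata1 was at 0 in 3 of the 6. The part of red cell precursors in the E2f2 values of the livers was not tested. In bulk tissue, fewer cells of a type and less RNA per cell cannot be told apart.

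**Figure D2:**
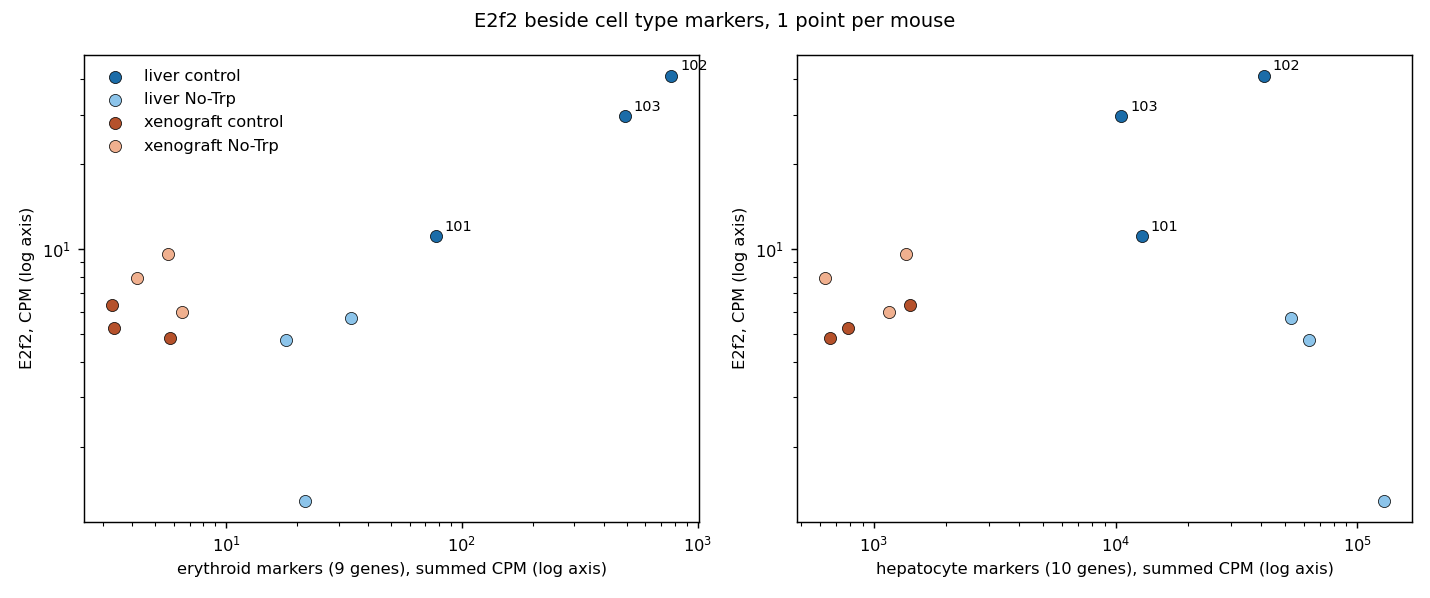
E2f2 in CPM (log axis) against the summed CPM (log axis) of 9 erythroid markers on the left and of 10 hepatocyte markers on the right, with 1 point per mouse and the control livers numbered. Control livers 102 and 103 lie highest in E2f2 and in erythroid markers, liver 101 lies lower in both, and the No-Trp livers lie highest in hepatocyte markers.

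Of the repressors, E2f4 had 99.3, 103 and 111 CPM in the control livers. In the No-Trp livers it had 53.5, 42.8 and 54.2 CPM. The mice within a diet were close to each other and the diets were far apart, and E2f4 fell 2.05-fold (log2 fold change -1.04, SE 0.152, adjusted p = 0.0156 in edgeR). E2f5, which like E2f4 acts mostly through the pocket proteins, was at 32.1, 26.6 and 32.9 CPM on the control diet and at 17, 10.2 and 16.3 CPM on the No-Trp diet. Again no mouse of one diet reached the other. E2f5 fell 2.08-fold (log2 fold change -1.06, SE 0.238, adjusted p = 0.0255 in edgeR). Both folds lie just past the threshold, and without single livers they ranged from -0.94 to -1.09 for E2f4 and from -0.87 to -1.18 for E2f5 on the log2 scale. E2f6, the repressor that works without pocket proteins, was at 21.1, 36.0 and 33.5 CPM in control livers and at 30.1, 40.0 and 27.0 CPM in No-Trp livers. The diets overlapped, and the log2 fold change of E2f6 was 0.12 (SE 0.256, adjusted p = 0.741 in edgeR).

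The atypical repressors differed in level and in what the test found. E2f8 was at 47.4, 67.3 and 68.7 CPM in the control livers and at 13, 5.76 and 12.3 CPM in the No-Trp livers. The lowest control liver, 101, was still well above the highest No-Trp liver, 105. E2f8 fell 5.83-fold (log2 fold change -2.54, SE 0.335, adjusted p = 0.0136 in edgeR), and its adjusted p was at most 0.05 in 5 of the 6 fits that left out 1 liver. E2f7, the partner of E2f8 in hepatocyte polyploidy, had 5.33, 11.3 and 9.05 CPM on the control diet and 5.02, 2.08 and 5.93 CPM on the No-Trp diet. Control liver 101 lay within the No-Trp range, and the log2 fold change was -0.96 (SE 0.451, adjusted p = 0.150 in edgeR). The log2 ratio of E2f7 was 0.15 within the marked pair and -1.52 among the unmarked livers.

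The pocket protein genes also came out differently. Rbl1, itself a known E2F target, was at 13.8, 22.1 and 16.2 CPM in control livers and at 6.74, 4.35 and 7.94 CPM in No-Trp livers. All No-Trp livers were below all control livers. Rbl1 fell 2.7-fold (log2 fold change -1.43, SE 0.303, adjusted p = 0.0236 in edgeR). Rb1, the retinoblastoma tumor suppressor, was at 9.70, 19.0 and 16.9 CPM on the control diet and between 11.4 and 12 CPM in the 3 No-Trp livers. Control liver 101 was the lowest of the 6, so the diets overlapped, and the log2 fold change was -0.36 (SE 0.278, adjusted p = 0.369 in edgeR). Rb1 had a log2 ratio of 0.31 within the marked pair and -0.64 among the unmarked livers.

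**Figure D3:**
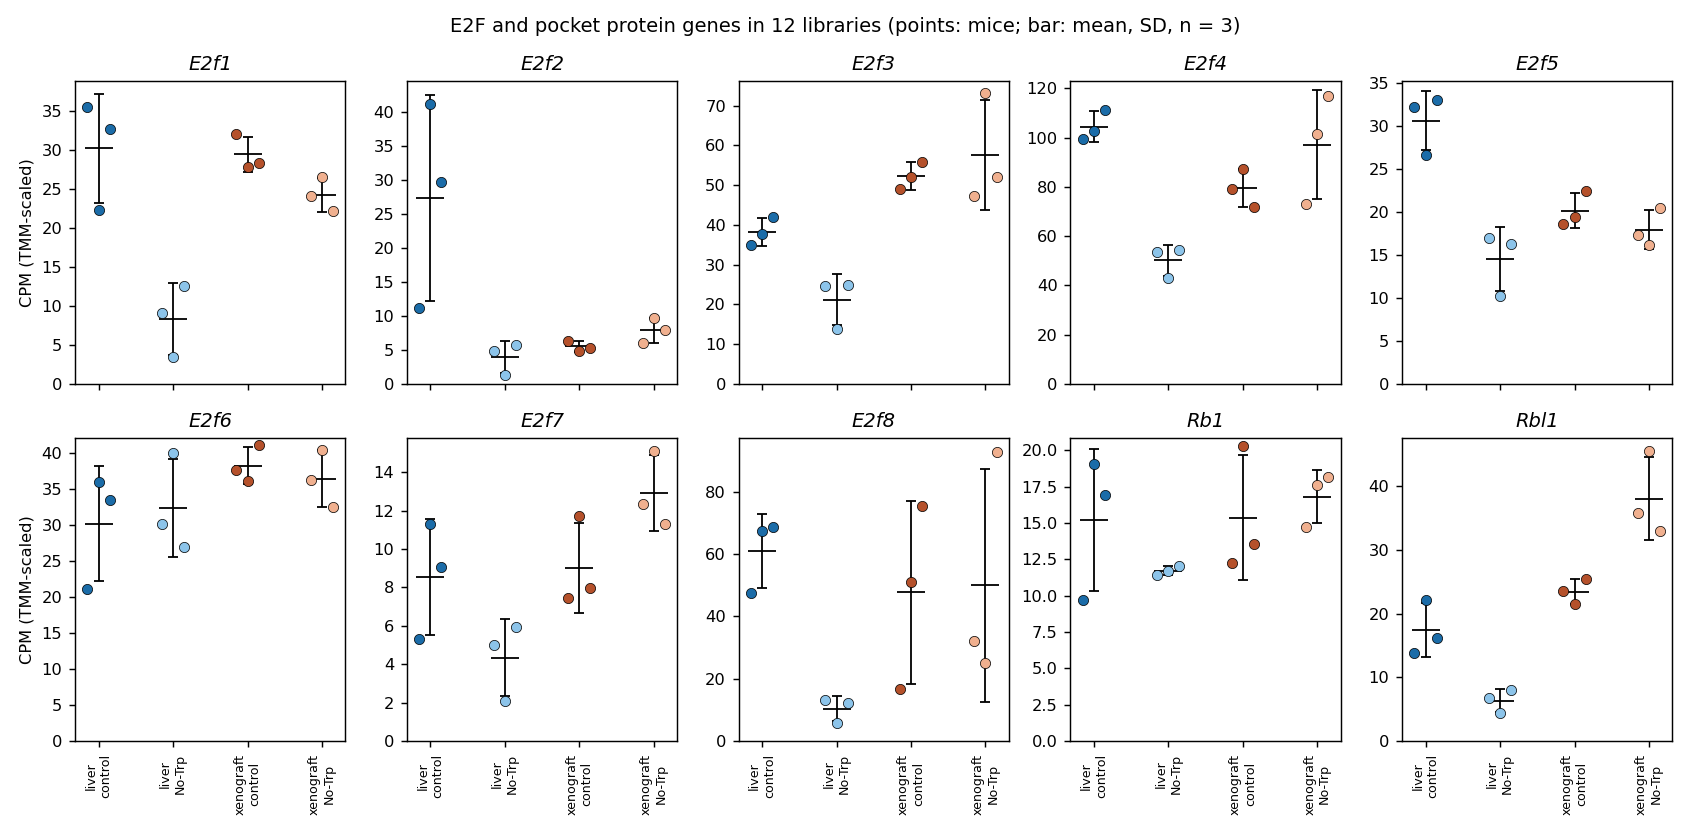
CPM of each of the 10 genes in the 12 mice by group, where points are mice and the bars give the mean and SD (n = 3). For E2f1, E2f2, E2f3, E2f4, E2f5, E2f8 and Rbl1 the No-Trp livers lie below the control livers without overlap, while in the xenografts the diets overlap for all but E2f1 and Rbl1.

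Markers of some cell types moved with the diet in the livers as well. Hepatocyte markers summed to 10536 to 40954 CPM in control and 52938 to 129305 CPM in No-Trp livers. Of the 10 genes, 5 were called higher, against 9.28% of all genes. Leukocyte markers summed to 255 to 352 CPM and 113 to 216 CPM on the respective diets, with 0 of 9 genes called in edgeR and 2 at an unadjusted p under 0.05 (41.8% of all genes). Endothelial markers summed to 83.5 to 161 and 140.2 to 275 CPM (1 of 6 called higher), and fibroblast markers to 678 to 816 and 623 to 819 CPM (1 of 6 called higher). The endothelial and fibroblast sums overlapped between the diets. The 5 adipocyte markers summed to 3.07 to 5.24 and 13 to 59.3 CPM. Most of this was Cidec, with means of 3.67 and 29.5 CPM, the 1 gene of the 5 that was tested, and it was called higher. Adipoq, Plin1, Lep and Retn had means of at most 0.368 CPM on either diet. No-Trp liver 107, the lowest mouse for 8 of the 10 genes, had the highest hepatocyte sum. The part of these cell types in the family's values was not tested.

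In the HCC53N xenografts, none of the 10 genes was called on the No-Trp diet in edgeR or in DESeq2, against 0.36% of the 14704 genes tested in edgeR. An unadjusted p under 0.05 was found for 1 of the 10 genes, Rbl1, and for 16.9% of all genes. The median log2 fold change of the family was 0.11 and that of all genes was -0.0045. E2f1 was the 1 gene whose No-Trp mice all lay below the control mice, as did 11.3% of all genes, and Rbl1 the 1 gene whose No-Trp mice all lay above, as did 11.2%.

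Rbl1 was at 23.5, 21.5 and 25.4 CPM in control xenografts 40, 41 and 43 and at 35.8, 45.5 and 33.0 CPM in No-Trp xenografts 35, 36 and 37. The groups did not overlap, with a log2 fold change of 0.67 (SE 0.174, adjusted p = 0.130 in edgeR), and between 0.53 and 0.77 with 1 xenograft left out. E2f1 was at 32, 27.8 and 28.3 CPM on the control diet and at 24.0, 26.5 and 22.1 CPM on the No-Trp diet. Its values lay close together, and the log2 fold change was -0.30 (SE 0.157, adjusted p = 0.367 in edgeR). E2f2 had 6.35, 4.84 and 5.28 CPM on the control diet and 6.0, 9.63 and 7.91 CPM on the No-Trp diet. Control mouse 40 lay within the No-Trp range, and the log2 fold change of E2f2 was 0.49 (SE 0.288, adjusted p = 0.428 in edgeR).

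E2f8 varied more among xenografts of the same diet than any other gene of the family. It was at 16.8, 51.0 and 75.4 CPM in control xenografts 40, 41 and 43 and at 32.1, 24.9 and 93.0 CPM in No-Trp xenografts 35, 36 and 37. Each diet thus had low and high mice, and the log2 fold change was 0.06 (SE 0.667, adjusted p = 0.979 in edgeR), from -0.77 without No-Trp xenograft 37 to 0.55 without control xenograft 43. E2f7 did not share this spread, with 7.43, 11.7 and 7.95 CPM on the control diet and 12.3, 15.1 and 11.3 CPM on the No-Trp diet. Its diets overlapped through control mouse 41, and the log2 fold change was 0.49 (SE 0.255, adjusted p = 0.368 in edgeR).

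For the 5 other genes the xenograft values were flat or mixed. E2f4 ranged from 72.0 to 87.3 CPM on the control diet and from 73.1 to 117 CPM on the No-Trp diet (log2 fold change 0.27, SE 0.194). E2f3 was at 49.0 to 55.9 and 47.3 to 73.2 CPM (0.11, SE 0.183), and E2f5 at 18.5 to 22.4 and 16.1 to 20.4 CPM (-0.19, SE 0.191). E2f6 was at 36.1 to 41.1 and 32.5 to 40.4 CPM (-0.10, SE 0.149). Rb1 was at 12.3 to 20.3 and 14.7 to 18.1 CPM (0.11, SE 0.240). All 5 overlapped between the diets, and their adjusted p-values in edgeR were between 0.523 (E2f4) and 0.855 (Rb1). The adipocyte markers summed to 2.91 to 5.88 CPM in control and 91.0 to 205 CPM in No-Trp xenografts (4 of 5 called higher), while the leukocyte (336 to 543 and 402 to 632 CPM), endothelial (48.8 to 122 and 78.7 to 166 CPM), fibroblast (1087 to 4305 and 1734 to 5449 CPM) and hepatocyte sums overlapped. Their part in the values of the family was not tested. Among unmarked xenografts, control 40 alone could be set against the 3 No-Trp mice, with a log2 ratio of 0.70 for Rbl1, -0.40 for E2f1 and 1.58 for E2f8, and no No-Trp xenograft carries the mark.

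**Figure D4:**
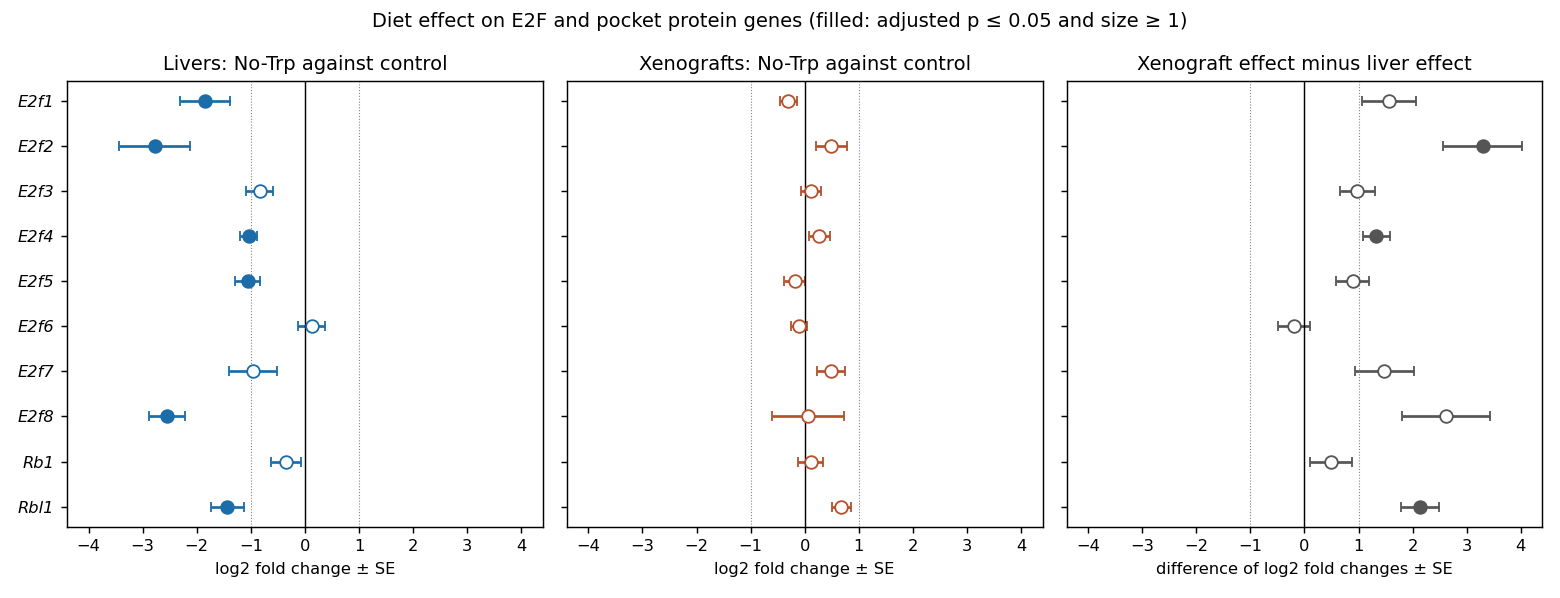
Log2 fold change with SE (horizontal axis) of each of the 10 genes for the diet in livers, the diet in xenografts and the difference between these, where filled points passed adjusted p and fold thresholds and dotted lines mark a log2 value of 1 in size. The 6 filled points in livers lie between -1.04 and -2.78, no point is filled in xenografts, and E2f2, E2f4 and Rbl1 are filled for the difference.

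The diet effects of the models were then compared in 1 fit over the 12 libraries. For 3 of the 10 genes the effect in xenografts lay above that in livers past both thresholds, as it did for 6.7% of the 15472 genes tested, and 6.01% lay below. The difference was 3.30 on the log2 scale for E2f2 (SE 0.733, adjusted p = 0.0160 in edgeR), 2.14 for Rbl1 (SE 0.353, adjusted p = 0.00683) and 1.33 for E2f4 (SE 0.251, adjusted p = 0.0100). These 3 kept an adjusted p of at most 0.05 in all 12 fits that left out 1 library. The difference for E2f8 was 2.62 (SE 0.818, adjusted p = 0.0510), for E2f1 1.57 (SE 0.498, adjusted p = 0.0521) and for E2f7 1.48 (SE 0.544, adjusted p = 0.0834) in edgeR, none of which passed. For E2f3, E2f5 and Rb1 it was 0.98, 0.90 and 0.49, and for E2f6 -0.19, with adjusted p-values from 0.0600 to 0.699. Without No-Trp liver 108, 5 of the 10 genes passed. Under library totals without scaling factors 7 passed, a setting which shifts the median of all genes in this contrast by 0.37. Model, host sex, strain and site of growth cannot be told apart in this comparison.

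On the control diet, E2f2 was the 1 gene of the 10 called lower in xenografts than in livers, where 20.2% of all genes were called lower and 23.3% higher. Its level was 5.49 ± 0.780 CPM in control xenografts and 27.3 ± 15.1 CPM in control livers (SD, n = 3), a 4.96-fold difference (log2 fold change -2.31, SE 0.524, adjusted p = 0.00239 in edgeR). E2f5 was 1.52-fold lower in xenografts (log2 fold change -0.60, SE 0.215, adjusted p = 0.0288 in edgeR), under the fold threshold. For the other 8 genes the adjusted p was between 0.0730 (E2f4) and 0.962 (Rb1).

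On the No-Trp diet, 5 of the 10 genes were called higher in the xenografts than in the livers, and 24.5% of all genes were. Rbl1 was at 38.1 ± 6.58 CPM in xenografts and 6.34 ± 1.83 CPM in livers, the clearest of the 5 (log2 fold change 2.57, SE 0.262, adjusted p = 5.0e-06 in edgeR). E2f8 was 4.8-fold higher at 50.0 ± 37.4 against 10.3 ± 3.99 CPM (log2 fold change 2.26, SE 0.599, adjusted p = 0.00667). E2f7 (1.56), E2f1 (1.53) and E2f3 (1.43) followed on the log2 scale, with adjusted p-values of 0.00454, 0.00298 and 2.3e-04. E2f4 was 1.92-fold higher (log2 fold change 0.94, SE 0.178, adjusted p = 6.9e-04), under the fold threshold. For 8 of the 10 genes all No-Trp xenografts lay above all No-Trp livers, against 37.8% of all genes, the exceptions being E2f5 and E2f6. The same No-Trp livers enter this contrast and the liver diet contrast, so both sets of values are not independent.

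The genes around the family were described with 4 lists. The first holds 9 dimer partners, the remaining pocket protein gene and the subunits of MuvB, the complex that pocket proteins join to silence cell cycle genes and that Mybl2 joins to activate them. In the livers 3 of the 9 were called lower on the No-Trp diet and 1 higher, where 7.27% of all genes were called lower and 9.28% higher. By adjusted p alone 6 were lower, against 12% of all genes. Mybl2 was at 98.0, 91.3 and 150 CPM in the control livers and at 29.6, 7.41 and 25.2 CPM in the No-Trp livers. It fell with a log2 fold change of -2.43 (SE 0.500, adjusted p = 0.0235 in edgeR). Tfdp1, the main DNA-binding partner of the E2F factors, fell from 306.5 ± 64.2 to 113 ± 42.2 CPM (log2 fold change -1.42, SE 0.323, adjusted p = 0.0261). Lin9, the MuvB scaffold subunit, fell from between 28.7 and 32.1 CPM to between 12.7 and 15.1 CPM (log2 fold change -1.15, SE 0.170, adjusted p = 0.0160). The log2 fold changes of Rbbp4 (-0.78), Lin54 (-0.76) and Tfdp2 (-0.64) passed the adjusted p but not the fold threshold.

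Rbl2, the pocket protein gene best known from resting cells, was the 1 gene of this list called higher. It was at 15.2, 26.4 and 21.3 CPM in the control livers and at 47.2, 63.7 and 35.5 CPM in the No-Trp livers. The groups did not overlap, and Rbl2 rose 2.37-fold (log2 fold change 1.24, SE 0.286, adjusted p = 0.0267 in edgeR). The call was lost without each of control livers 101 and 103 and No-Trp livers 105 and 107, and with library totals, where 0 genes of the list were called higher. In the xenografts Rbl2 was between 26.9 and 30.7 CPM on both diets. The difference of the diet effect between the models was -1.24 for Rbl2 (SE 0.325, adjusted p = 0.0270 in edgeR), and its adjusted p was at most 0.05 in 7 of the 12 fits that left out 1 library.

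The second list holds 15 kinases, cyclins and inhibitors that act on pocket proteins, of which 5 were called lower in edgeR in the livers (7.27% of all genes) and 0 higher, and 7 were lower by adjusted p alone (12% of all genes). Ccne1, the cyclin that activates Cdk2 at the start of S phase, was at 64.3, 64.7 and 70.7 CPM in control livers and at 22, 8.82 and 28.2 CPM in No-Trp livers (log2 fold change -1.74, SE 0.385, adjusted p = 0.0253). Ccne2 fell by 1.36 and Cdk4, the kinase partner of D-type cyclins, by 1.28 on the log2 scale. The inhibitor genes Cdkn1c and Cdkn2d fell by 1.45 and 1.25, so the called genes included activators and inhibitors of the kinases. Ccnd3 (-0.97) and Cdk2 (-0.58) passed the adjusted p alone. The inhibitor gene Cdkn1a, a p53 target, had a log2 fold change of 0.76 (adjusted p = 0.0862).

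The third list holds 30 known E2F target genes of DNA replication, and the fourth 15 genes of G2 and M phase that MuvB complexes control. Of the target genes 25 were called lower (7.27% of all genes) and 0 higher in edgeR, with a median log2 fold change of -1.71, and 27 of the 30 had an unadjusted p under 0.05, as did 41.8% of all genes. Cdc6, which loads the replicative helicase, had a log2 fold change of -2.55, Uhrf1, which maintains DNA methylation, -2.32, and Rrm2, a subunit of ribonucleotide reductase, -2.11. Those not called included Tk1 (0.01), Mcm10 (-0.49), Rfc3 (-0.70) and Chaf1b (-1.44, adjusted p = 0.0543 in edgeR), named here after their values were seen. Among the G2/M genes 12 of 15 were called lower, with a median of -2.08, and the strongest were the proliferation marker Mki67 (-2.39), Top2a (-2.32) and Cenpe (-2.24). The summed level of the target genes was 2963 to 3283 CPM in control livers and 611 to 1296 CPM in No-Trp livers, and that of the G2/M genes 1794 to 2041 and 139 to 620.1 CPM. Without control liver 103, 0 genes of any of the 4 lists were called. Without control liver 101 or No-Trp liver 105 each, 1 target gene, 0 G2/M genes and 1 gene of the first list were called lower, and of the second list 1 and 0 genes. Without No-Trp liver 108, 3 G2/M genes were called, and without No-Trp liver 107, 2 genes of the second list. With no filter on low counts 6 G2/M genes were called, and with library totals 5 genes of the first list.

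In the xenografts 0 genes of the 4 lists were called in edgeR. DESeq2 called 2 genes of the second list and 1 G2/M gene higher. At an unadjusted p under 0.05 there were 3 of 9, 5 of 15, 8 of 30 and 10 of 15 genes in the 4 lists, against 16.9% of all genes. The target genes had a median log2 fold change of 0.23 with 26 of 30 above 0, and the G2/M genes had a median of 0.55 with all 15 above 0. The largest values were 1.27 for Ccne2, 1.03 for Ccnd2, 1.02 for Kif23, 0.91 for Ccnb1, 0.84 for Mybl2 and 0.79 each for Ccna2 and Lin54, none of which passed. Without No-Trp xenograft 35, 1 G2/M gene was called.

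In the test of the difference, 6.7% of all genes had a xenograft diet effect above the liver effect past both thresholds, and 6.01% below. For 25 of the 30 target genes and 14 of the 15 G2/M genes, the xenograft effect lay above the liver effect in this way. In the first list this held for 4 of 9 genes, with Mybl2 at 3.29 (adjusted p = 0.00735), Tfdp1 at 1.74 (0.0144), Lin54 at 1.58 (0.0103) and Lin9 at 1.25 (0.0119) in edgeR. In the second list it held for 3 of 15, with Ccne2 at 2.66, Ccne1 at 2.17 and Cdkn2d at 1.42. Cdkn2a, whose products inhibit Cdk4 and stabilize p53, differed in the other direction (-1.28, adjusted p = 0.0210), a call lost without control liver 103 and with library totals. Its levels were 2.87 to 6.74 CPM in the livers, against 516 to 703 CPM in control xenografts and 346 to 449 CPM in No-Trp xenografts. Without control liver 103 the counts were 15 target genes and 8 G2/M genes, and without No-Trp xenograft 36 there were 16 target genes.

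**Figure D5:**
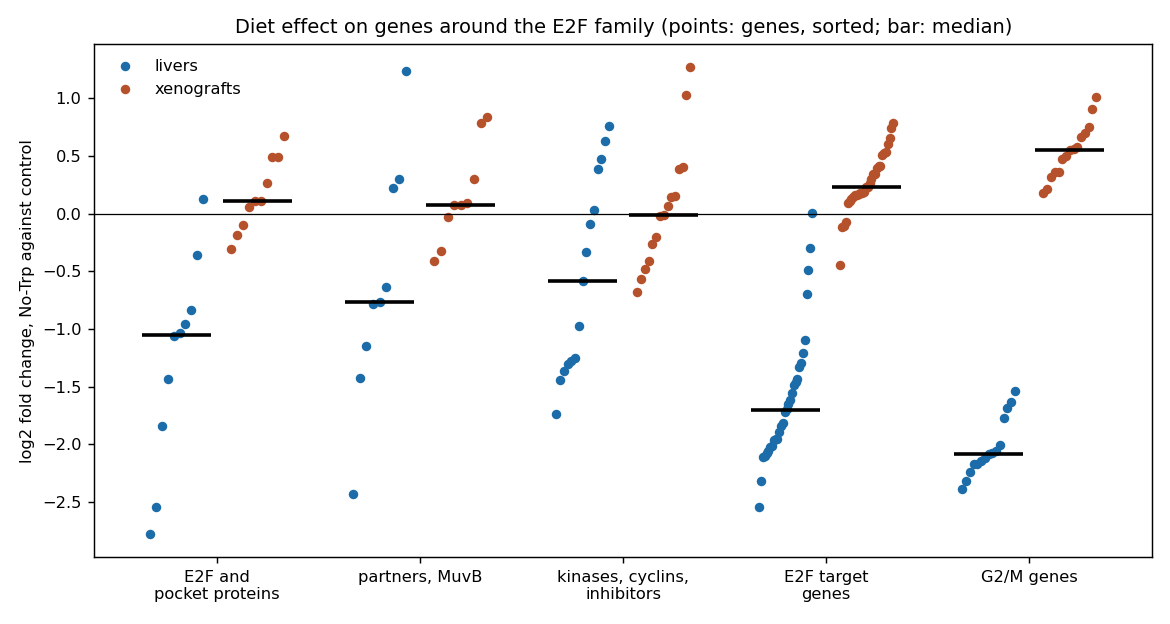
Log2 fold change of No-Trp against control diet (vertical axis) for each gene of the family and of the 4 lists, sorted within a list, in livers (blue) and xenografts (orange), with the median as a bar. In livers the medians run from -0.58 for kinases, cyclins and inhibitors to -2.08 for G2/M genes, and in xenografts from -0.01 to 0.55.

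For each family gene, the genes with the most similar pattern over the 12 libraries were found by the root mean square difference of centred log2 CPM among 15471 genes. The closest matches were found for E2f4, whose neighbours were Slc16a1 (0.0879), Taf5l (0.127) and Rfwd3 (0.130), against a median of 0.811 over all genes. E2f5 came next with Suz12 (0.0987), Cct3 (0.112) and Tada2a (0.127). The activators had Cdc45 and Cenpa (E2f1, 0.253 and 0.258), Oip5, Exo1 and Rad54l (E2f2, 0.444 to 0.449) and Ezh2, Nup93 and Casp2 (E2f3, 0.167 to 0.171) beside them. Rbl1 had Ttc21b, Gramd1b and Cd276 (0.235 to 0.298), and E2f7 had Cdc42ep3, Ttc21b and Ezh2 (0.254 to 0.295). E2f8, the most variable in the xenografts, had no gene nearer than 0.560 (BC055324, then Nexn and Stil). E2f6 was closest to Vcp (0.139), Plekhm1 and Zfp953, and Rb1 to Atf7ip (0.140), Dctn1 and Tango6, in patterns that varied little between groups. These values are descriptions over libraries that share models and diets.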

How the data were processed

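Trimming (Trim Galore), alignment to mm10 (STAR 2.7.2b, per the submitters' processing notes) and counting per gene (HTSeq) were done by the authors. The deposited values are raw read counts per gene, 1 library per mouse, with no normalization, and every column of per-sample values was used. Rows for reads left out of genes (24.7% to 39.4% of the reads) did not enter library sizes or tests. Expression was tested on the counts with edgeR 4.0.16 (quasi-likelihood test, two-sided, TMM factors, filterByExpr, Benjamini-Hochberg adjustment over all genes tested) in R 4.3.3. Each model was fitted separately for the diet, and all 12 libraries together for the difference between models and for the models on each diet. Calls needed both thresholds of the study's methods (adjusted p 0.05, log2 fold change 1). All 10 genes passed the filter in each fit. CPM values use TMM factors over the 12 libraries, and CPM per kb the union exon length of GENCODE M21. The 10 genes took 2208 to 10964 reads per library, and the test covers their counting error together with the spread between mice.

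The 10 genes and the gene lists were chosen with earlier results of these data known. Named genes were all 10 genes, genes of the first 2 lists, the 3 largest changes of the target and G2/M lists per diet comparison, the 3 nearest genes by pattern, and markers. Alternatives were RLE factors, library totals, DESeq2 1.42.0, no filter, at least 10 counts in every library, no Rn45s row, the resubmission mark as a covariate, 1 fit over all libraries, no fold threshold, and leaving out each mouse. The code was tested on simulated data, where 4-fold changes were recovered for 100% of 100 genes in the livers, 100% in the xenografts and 94% for the difference between models, and 2-fold changes for 57%, 64% and 19%. Of all calls in these simulations 7.65%, 2.96% and 3.42% fell on unchanged genes. The changed genes were drawn from those with a mean above 100 reads, and all genes had the same dispersion. Calls there used the adjusted p without the fold threshold, so these rates do not carry over directly to the calls made here. Protein sequences and the promoters of E2f4, E2f5 and Rb1 were not used here, and the E2f1 window lay inside the GENCODE gene. A few values that these rules would name are not reported here.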

Additional observations from a re-analysis of the deposited data

Results flagged for a closer look

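The diet effect differed between the models by a test of the difference itself for 3 genes of the family, with xenograft minus liver values of 3.30 for E2f2, 1.33 for E2f4 and 2.14 for Rbl1 on the log2 scale. For E2f2 the adjusted p of this difference (edgeR) was 0.0160, for E2f4 0.0100 and for Rbl1 0.00683. With 3 mice per group, single mice far from their group were not tested for.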

How the results depend on the processing

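The number of family genes called lower in the livers was 0 to 6 with 1 liver left out, 7 without the fold threshold and 6 under every other setting. For the difference between models, 3 to 5 genes were called with 1 library left out, 7 with library totals, 6 with DESeq2, 5 with at least 10 counts in every library and 5 with the resubmission mark as a covariate. On the control diet 2 genes were lower in xenografts without the fold threshold, and on the No-Trp diet 8 were higher with library totals, which shift the median of all genes by -0.29 in the liver diet contrast and by 0.53 in that one.

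Directions turned mostly for genes near 0. With library totals the log2 fold change was -0.21 for E2f6 and -0.29 for Tk1 in livers, 0.012 for E2f6 in xenografts, 0.22 for E2f6 in the difference between models and 0.12 for E2f1 between the models on the control diet. Tk1 in livers was at -0.0040 with at least 10 counts in every library and at -0.0093 in 1 fit over all libraries. Rb1 on the control diet was at -0.0076 with RLE factors, -0.0055 in DESeq2 and -0.0088 without the Rn45s row. With 1 library left out, the ranges were -0.0777 to 0.25 for E2f6 and -0.10 to 0.0673 for Tk1 in livers. In xenografts they were -0.77 to 0.55 for E2f8, -0.0345 to 0.36 for Rb1 and -0.0900 to 0.25 for E2f3. For E2f6 in the difference between models the range was -0.32 to 0.00891. Between the models on the control diet they were -0.25 to 0.10 for E2f1, -0.17 to 0.29 for E2f7, -0.85 to 0.0480 for E2f8 and -0.23 to 0.17 for Rb1. Library totals shift the median of all genes by 0.11 in the xenograft diet contrast and by 0.16 between the models on the control diet. The cause of the turns was not tested.

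No paired analysis was possible because no mouse number is shared between groups. With 3 mice per group a permutation test of 1 gene cannot go below p = 0.1, and changes near 2-fold were often missed in simulation.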
